A study of Mus musculus with 7 samples.

Results

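Casein-high alveolar cells of older mice were the luminal alveolar (AV) cells of the aged mice that held 20 or more unique molecular identifiers (UMIs, each 1 captured mRNA molecule) of the caseins Csn1s1, Csn1s2a and Csn2 together. They were chosen by those 3 genes and set against AV cells of the same mouse with 2 or fewer such UMIs, here called casein-low. By this rule 1249 casein-high and 694 casein-low cells of Aged A, Aged C and Aged D entered the comparison, out of 4026 AV cells of aged mice and 13684 cells in all. Aged B had 1 casein-high cell, fewer than the 10 that the rule asks of each side, and was left out of the comparison. The study had sequenced dissociated cells of the #4 mammary glands, lymph nodes removed, from 3 young females of 3 to 4 months and 4 aged females of 13 to 14 months, 1 library per mouse. All 7 mice were nulliparous, actively cycling and sampled in diestrus, on a mixed FVB, 129, C57BL/6J background, and the labels give them no further allele and no treatment. The cell types are those the authors assigned. The mouse was the replicate throughout, so the comparison rests on 3 mice.

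Caseins are the main proteins of milk and are carried in micelles that hold calcium and phosphate. In pregnancy and lactation prolactin binds its receptor on AV cells, the kinase JAK2 phosphorylates the transcription factor STAT5, and STAT5 binds the promoters of milk protein genes. Milk also holds a whey fraction with alpha-lactalbumin, and fat droplets wrapped in a membrane with butyrophilin, both made by the same cells. In a gland that has never been pregnant AV cells line the ducts and are mostly regarded as progenitors of the secretory cells.

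The genes of the rule lie together on chromosome 5 of GRCm38 in GENCODE M21, Csn1s1 at chr5:87666208-87682578 on the plus strand, Csn2 at chr5:87692624-87699630 on the minus strand and Csn1s2a at chr5:87774567-87788797 on the plus strand, a span of 122.6 kb. Their promoters are shown because the genes were counted together by the rule and STAT5 is their known regulator. Each line gives the 250 bases before the RefSeq start, 5′ to 3′ on the strand of the gene and on build GRCm38.p6, for Csn1s1 at chr5:87665958-87666207 (plus), Csn1s2a at chr5:87774200-87774449 (plus) and Csn2 at chr5:87699426-87699675 (minus). Capitals mark matches to TTCNNNGAA, the palindromic core that STAT proteins bind, which reads alike on both strands.
Csn1s1: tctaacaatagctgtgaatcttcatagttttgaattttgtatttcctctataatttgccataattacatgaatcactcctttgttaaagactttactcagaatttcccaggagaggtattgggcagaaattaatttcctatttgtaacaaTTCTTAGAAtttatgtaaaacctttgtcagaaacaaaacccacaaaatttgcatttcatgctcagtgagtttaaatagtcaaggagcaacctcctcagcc
Csn1s2a: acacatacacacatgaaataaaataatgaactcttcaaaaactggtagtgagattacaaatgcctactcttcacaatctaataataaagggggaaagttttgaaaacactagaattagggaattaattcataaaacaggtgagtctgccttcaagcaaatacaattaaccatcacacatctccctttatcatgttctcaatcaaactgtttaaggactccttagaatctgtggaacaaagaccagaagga
Csn2: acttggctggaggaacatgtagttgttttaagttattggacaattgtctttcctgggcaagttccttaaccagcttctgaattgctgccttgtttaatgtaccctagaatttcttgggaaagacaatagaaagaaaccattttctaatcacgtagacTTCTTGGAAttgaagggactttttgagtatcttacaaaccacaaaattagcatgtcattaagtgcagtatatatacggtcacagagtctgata
Csn1s1 had 1 match, which began 100 bases before the start, Csn2 had 1, which began 93 bases before it, and Csn1s2a had 0 in this window. Of all 32851 promoter windows of this length, 7.02% held the letters. Among the genes tested below, a window matched by symbol for 6327 of 8226 and 6.99% of these held a match, against 11 of 175 (6.29%) for genes higher in casein-high cells and 21 of 194 (10.8%) for genes lower in them.

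Casein-high cells made up very different shares of the AV cells of each aged mouse. They were 360 of 860 in Aged A (41.9%, exact binomial 95% interval 38.5 to 45.2%), 652 of 909 in Aged C (71.7%, 68.7 to 74.6%), 237 of 811 in Aged D (29.2%, 26.1 to 32.5%) and 1 of 1446 in Aged B (0.0692%, 0.00175 to 0.385%). The intervals, which cover counting error alone, did not overlap between any of these mice. None of the 288, 104 and 402 AV cells of Young A, Young B and Young C was casein-high, which allows shares of up to 1.04%, 2.88% and 0.746%, and no young AV cell held more than 1 casein UMI. Because caseins chose the cells, these shares are a description and were not tested between ages, and the same comparison could not be made in young mice.

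**Figure D1:**
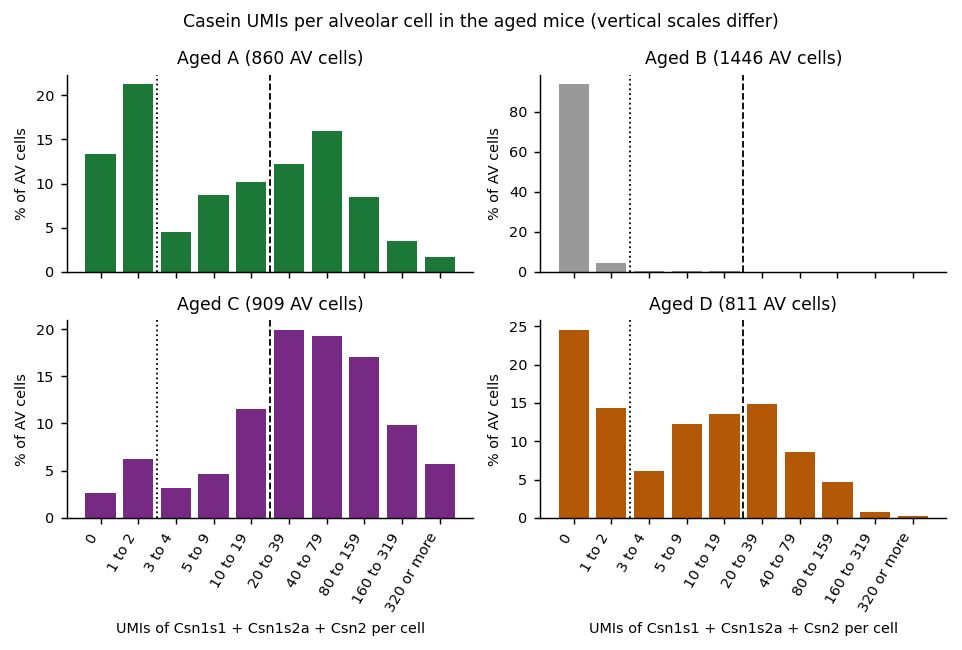
Percent of AV cells (vertical axis) by the summed UMIs of Csn1s1, Csn1s2a and Csn2 in the cell (horizontal axis, classes of increasing width) in the 4 aged mice. The dotted line closes the casein-low class at 2 UMIs and the dashed line opens the casein-high class at 20, and cells of Aged A and Aged D sit on both sides, those of Aged C mostly above 20 and those of Aged B almost all at 0.

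Within the casein-high cells the amount of casein spread widely, from 20 UMIs, the lower limit of the rule, to 1965. The median cell held 53 casein UMIs in Aged A, 69 in Aged C and 38 in Aged D, that is 0.755%, 0.869% and 0.530% of all UMIs of the cell. The highest cell held 937 in Aged A, 1965 in Aged C and 457 in Aged D, and in the cell of Aged C with the highest share caseins were 19.7% of all UMIs. At 100 UMIs or more stood 94 cells of Aged A, 236 of Aged C and 27 of Aged D, and 6 cells, all of Aged C, held 1000 or more. The single casein-high cell of Aged B held 33 UMIs, all of Csn1s1.

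The limits of the rule lay within a continuous range. In Aged A, Aged C and Aged D together, 54 AV cells held 18 or 19 casein UMIs and 56 held 20 or 21, and 112 cells held 2 UMIs against 58 with 3. Just outside, the 4 cells of Aged A with 19 UMIs held 56 of Csn1s1, 4 of Csn1s2a and 16 of Csn2, and just inside, the 10 with 20 held 176, 6 and 18. In between lay 202 cells of Aged A, 176 of Aged C and 259 of Aged D with 3 to 19 UMIs, which belonged to neither side.

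The 3 caseins did not fill these cells in a fixed proportion. Csn1s1, which encodes alpha-S1-casein, was found in all casein-high cells with at least 20 UMIs of Aged A, Aged C and Aged D and was the highest of the 3, ties included, in 1028 of the 1249. Csn1s2a (alpha-S2-casein) and Csn2 (beta-casein) made up a larger part of the casein UMIs in cells with much casein. The classes below are cut on the sum of these same 3 caseins, which places cells with much Csn1s2a or Csn2 in the upper classes. Their shares and ratios are therefore a description. In cells with 3 to 19 casein UMIs Csn1s1 gave 85.2% of the casein UMIs in Aged A, 81.1% in Aged C and 79.5% in Aged D. In cells with 20 to 99 it gave 72.0%, 66.7% and 67.7%, and in cells with 100 or more it gave 44.4%, 35.8% and 50.3%. From the cells with 20 to 99 to those with 100 or more, Csn1s1 relative to other UMIs was 2.44 times as high in Aged A, 2.76 times in Aged C and 2.86 times in Aged D, while Csn1s2a was 7.99, 10.9 and 7.90 times as high and Csn2 7.81, 8.94 and 4.17 times. All 3 caseins were seen in 272 of the casein-high cells of Aged A (75.6%), 545 of Aged C (83.6%) and 166 of Aged D (70.0%). Over casein-high cells of 1 mouse the amounts per other UMI of Csn1s2a and Csn2 followed each other with a Spearman rho of 0.57 in Aged A (360 cells), 0.71 in Aged C (652) and 0.37 in Aged D (237). In the same order rho was 0.43, 0.58 and 0.35 for Csn1s1 and Csn1s2a, and 0.41, 0.59 and 0.22 for Csn1s1 and Csn2. This describes cells that share a library and were chosen by the sum of these genes, in amounts that share a denominator. The tags of this chemistry are counted at the 3′ end of the mRNA and do not scale with gene length, so levels of different genes are set side by side only as UMIs.

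**Figure D2:**
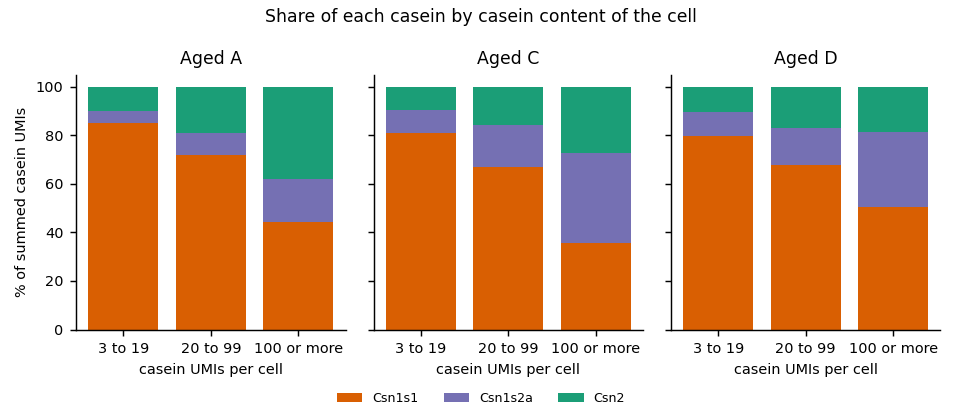
Share of Csn1s1, Csn1s2a and Csn2 in the summed casein UMIs (vertical axis, percent) of AV cells with 3 to 19, 20 to 99 and 100 or more casein UMIs (horizontal axis), for the 3 mice of the comparison. The share of Csn1s1 goes from 79.5 to 85.2% in the lowest class to 35.8 to 50.3% in the highest.

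Casein UMIs were also found outside AV cells. In cells of all other types 1 casein UMI or more was found in 52.4% of cells in Aged A, 62.5% in Aged C and 28.6% in Aged D, at a mean of 0.873, 1.50 and 0.471 UMIs per cell, against 1.54% of cells in Aged B. Casein-low AV cells, which the rule limits to 2 UMIs, held 1 or more in 61.4%, 70.4% and 36.8% of cells, at a mean of 0.802, 1.06 and 0.454 UMIs and at a higher median depth (6244, 6541 and 6643 against 4649, 5591 and 5357 UMIs per cell). Because the rule limits these cells and not the other types, their casein level was not compared with that of the other types. Of 8864 cells of other types in all mice, 7 reached 20 casein UMIs, with 21 to 57 UMIs each.

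The depth of the cells moved with the rule. The median cell held 7389.5 UMIs of genes other than the 3 caseins on the casein-high side of Aged A against 6242.5 on the casein-low side, 8079 against 6539 in Aged C and 7827 against 6643 in Aged D. Summed over cells, the sides held 2796178 and 1944591 other UMIs in Aged A, 5431004 and 556682 in Aged C, where casein-low cells were fewest (81), and 1976642 and 2245644 in Aged D. Across the 7 libraries the totals ranged from 6652599 to 16999625 UMIs. Of all cells, 202 carried a barcode found in another library as well, 17 of them casein-high. The caller Scrublet, run on each mouse, marked 9 casein-high and 5 casein-low cells as doublets.

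Both sides carried the markers of AV cells and little of those of other types. The 6 AV markers (Mfge8, Trf, Csn3, Wfdc18, Ltf and Elf5) summed to 20969 to 32791 CPM (casein-free counts scaled to 1000000 per side) on the casein-high side and 20971 to 22534 on the casein-low side, with 0 of the 6 absent. The 7 myoepithelial markers summed to 99.2 to 124 CPM in casein-high and 101 to 202 in casein-low cells, against 11417 to 13444 in the myoepithelial cells of these mice. The 5 hormone-sensing markers summed to 29.3 to 40.1 CPM in casein-high and 26.3 to 129 in casein-low cells, against 1286 to 2666 in hormone-sensing cells. Fibroblast markers reached 11.4 to 32.9 and 14.4 to 37.5 CPM, endothelial markers 7.18 to 15.0 and 12.9 to 17.96, pericyte markers 7.92 to 18.7 and 15.6 to 23.4, immune markers 15.8 to 73.7 and 20.9 to 74.6, and adipocyte markers 18.6 to 66.2 and 21.6 to 52.5, in casein-high and casein-low cells. The adipocyte genes Adipoq, Plin1 and Cidec were at 0 on both sides, and 0 of the 10 markers of other cell types that could be tested were called in the comparison below. Of these 10, 1 reached an unadjusted p under 0.05 with edgeR, and DESeq2 called 0. The log2 fold change of Acta2, the smooth muscle actin of myoepithelial cells, was -0.68 (adjusted p = 0.22), and Acta2 was called lower with matched depth (-1.06) and without Aged C (-0.996). Outside the marker lists the plasma cell gene Jchain had 440 UMIs in casein-low and 5 in casein-high cells of Aged A. The part of these markers in the results was not tested.

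To ask what else set casein-high cells apart, counts of each side were summed per mouse and compared within mice with the edgeR quasi-likelihood test, with the mouse as a block and with the 3 caseins left out of the fit and of the library sizes. A gene was called higher or lower where it differed by 1.5-fold or more and its p, adjusted by the method of Benjamini and Hochberg, was below 0.05. Of 8226 genes tested, 252 were higher in casein-high cells (3.06%) and 269 lower (3.27%), and 243 and 262 of these went the same way in all 3 mice. The median log2 fold change over all genes tested was -0.0016. Some of the called genes passed the filter on low counts only through the side where they were high, and those among the named genes with the largest changes are given below. Without the block 32 and 48 genes were called, with DESeq2 127 and 137, with every cell thinned to 2000 UMIs 92 and 101 of 4609 tested, and without Aged A 89 and 126. Without Aged C, whose casein-low side was smallest, 348 and 369 were called, and without Aged D 181 and 191. With casein-high and casein-low cells of each mouse matched on depth 247 and 250 were called, of which 223 and 228 were among those above.

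Levels below are CPM scaled by TMM, given for Aged A, Aged C and Aged D in this order. Log2 fold changes (casein-high minus casein-low) carry the standard error of the fit, which draws on the variance of other genes and is not the spread over the 3 mice. The plot of gene levels in both sides of each mouse shows 20 of these genes. Counts of called list members stand beside the 3.06% and 3.27% of all genes tested that were called higher and lower.

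**Figure D3:**
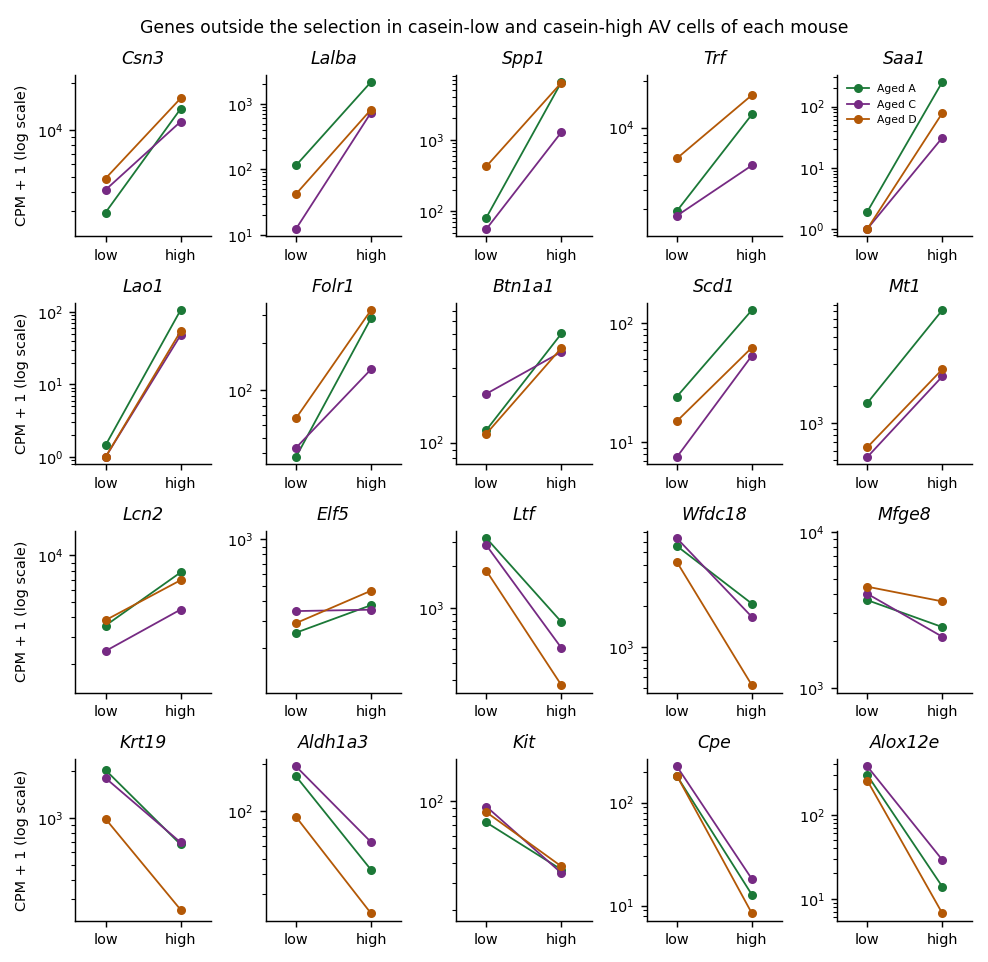
Level (CPM + 1, log scale) of 20 genes that the rule did not use, in casein-low and casein-high AV cells of the same mouse, joined by a line for each of Aged A, Aged C and Aged D. In all 3 mice the lines of the first 11 panels (Csn3 to Lcn2) go up and the lines of the 8 panels from Ltf on go down, while Elf5 did not pass the test.

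Milk proteins outside the rule were mostly higher in casein-high cells. Of the 20 genes of that list 15 passed the filter on low counts. Among these 9 were called higher (60%, against 3.06% of all genes) and 3 lower (20%, against 3.27%). The median log2 fold change of the 15 was 0.96 against -0.0016 for all genes tested. The 9 include Lao1 and Pigr, which had 25, 3 and 6 UMIs in casein-low and 61, 47 and 16 in casein-high cells. Neither would have passed the filter by its casein-low side alone, so that their place among the 9 is a description. Csn3, the kappa-casein that caps the micelle, stood at 2946, 4116 and 4870 CPM in casein-low cells and at 13620, 11272 and 15909 CPM in casein-high cells. Casein-high cells were above casein-low cells without overlap, with a log2 fold change of 1.79 ± 0.12 (adjusted p = 6.1e-08). Lalba, alpha-lactalbumin, the whey protein that turns galactosyltransferase into lactose synthase, was at 114, 11.4 and 41.2 CPM in casein-low and at 2167, 737 and 820 CPM in casein-high cells. Its log2 fold change was 4.55 ± 0.22 (adjusted p = 1.5e-09), and the casein-high level of Aged A stood above those of Aged C and Aged D. Spp1, osteopontin, a secreted phosphoprotein abundant in milk, was at 80.4, 55.2 and 425 CPM in casein-low and at 6520, 1288 and 6377 CPM in casein-high cells (log2 fold change 4.93 ± 0.33, adjusted p = 5.8e-08). In other cell types of these mice Lalba reached 13.7 to 33.2 CPM and Spp1 10.1 to 76.1 CPM (unscaled).

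Trf, transferrin, the iron carrier of milk, went from 2917, 2721 and 6348 CPM to 12150, 5727 and 16171 CPM (log2 fold change 1.49 ± 0.14, adjusted p = 3.3e-06). It rose within every mouse, although the casein-high level of Aged C lay below the casein-low level of Aged D. Folr1, the folate receptor alpha that milk carries in soluble form, went from 36.8, 42.2 and 65.6 CPM to 287, 135 and 323 CPM (2.40 ± 0.21, adjusted p = 1.5e-06). Lcn2, lipocalin-2, which binds bacterial siderophores, went from 3550, 2437 and 3843 CPM to 7783, 4497 and 6938 CPM (0.96 ± 0.10, adjusted p = 1.1e-05).

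Lao1, an L-amino acid oxidase of mouse milk that yields hydrogen peroxide, was nearly absent from casein-low cells. It had 1, 0 and 0 UMIs there and 276, 246 and 93 UMIs in casein-high cells. Per other UMI, pooled over the 3 mice, this was 286 times as much (exact interval 51.2 to 11319, counting error alone), 158.7 times without Aged D and, against a floor of 3 counts over the group, at least 42.7-fold without Aged A. A UMI of Lao1 was found in 28.3%, 12.1% and 13.9% of casein-high cells, and after thinning to 2000 UMIs in 15.3%, 5.5% and 4.6%, against 0.336% or less of casein-low cells before thinning. With counts on the casein-high side alone Lao1 passed the filter only because it was high there.

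3 milk proteins fell, each of them abundant in casein-low cells. Ltf, lactotransferrin, an iron-binding antimicrobial protein, was at 3199, 2838 and 1853 CPM in casein-low and at 787, 509 and 273 CPM in casein-high cells (log2 fold change -2.42 ± 0.14, adjusted p = 1.2e-08). Wfdc18, a secreted protein with a whey acidic protein domain, was at 5561, 6350 and 4243 CPM and at 2087, 1666 and 522 CPM (-2.11 ± 0.21, adjusted p = 4.3e-06). Mfge8, a glycoprotein of the milk fat globule membrane, was at 3647, 4006 and 4447 CPM and at 2450, 2124 and 3578 CPM (-0.60 ± 0.12, adjusted p = 0.0038). For all 3 the groups did not overlap. Without Aged C the fall of Mfge8 was no longer called.

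Of the list's remaining tested members Muc1, Muc15 and Cd59a were not called, at log2 fold changes of -0.35 ± 0.17, -0.15 ± 0.18 and 0.12 ± 0.17. Genes that mark late pregnancy and lactation were scarce. Wap, the whey acidic protein, had 1, 2 and 2 UMIs in casein-low cells of Aged A, Aged C and Aged D and 29, 6 and 1 in their casein-high cells. Per other UMI it was higher in casein-high cells of Aged A and lower in those of Aged C and Aged D, and the pooled ratio of 3.35 went to 0.662 without Aged A. Glycam1, a mucin-like milk protein, had 1, 0 and 0 UMIs in casein-low and 29, 6 and 0 in casein-high cells, so that Aged A held most of them and Aged D 0. Csn1s2b, the casein gene next to Csn1s2a, had 2, 0 and 1 UMIs in casein-low and 0, 6 and 6 in casein-high cells. None of the 3 passed the filter. Of 14 genes around the casein cluster Csn3 was the only one tested. It lies at chr5:87925579-87932665 on the plus strand, 136.8 kb beyond the end of Csn1s2a, and Odam, between them, had 1 UMI in casein-low cells and 0 in casein-high cells. Of its other neighbours Amtn, an enamel protein gene, had 6, 0 and 4 UMIs in casein-low and 60, 6 and 6 in casein-high cells, and the pooled ratio of 3.35 per other UMI went to 1.13 without Aged A. Jchain, whose UMIs in Aged A are given above, had 0 in Aged C and Aged D. Amtn and Jchain were chosen after their values were seen.

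Genes of milk fat were higher in casein-high cells or did not pass the test. Of 31 listed genes 21 were tested, 11 were higher (52.4%, against 3.06% of all genes) and 0 lower. The median log2 fold change of the 21 was 0.78. The 11 include Lpl and Cidea, which had 2, 3 and 6 and 30, 2 and 20 UMIs in casein-low cells. Neither would have passed the filter on low counts by its casein-low side alone, so that their place among the 11 is a description. Scd1, the desaturase that makes monounsaturated fatty acids, was at 23.2, 6.50 and 14.0 CPM in casein-low and at 128, 52.5 and 61.5 CPM in casein-high cells (2.40 ± 0.21, adjusted p = 1.3e-06). Btn1a1, butyrophilin of the fat globule membrane, was at 119, 205 and 113 CPM and at 500, 381 and 404 CPM (1.62 ± 0.19, adjusted p = 4.4e-05). In both genes each casein-high level lay above all casein-low levels. Thrsp, a regulator of fatty acid synthesis, rose by 2.07 ± 0.27, Cidea, a lipid droplet protein, by 1.55 ± 0.25, Acsl4, a ligase that activates long-chain fatty acids, by 1.55 ± 0.28, and Plin2, the coat of cytoplasmic droplets, by 0.95 ± 0.14 on the log2 scale. Lpl, the lipase that takes up fatty acids from blood lipids, rose by 2.37 ± 0.53 at no more than 20.1 CPM, with overlapping groups, and its call, like that of Acsl4, was lost without Aged A.

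Of 12 genes of lactose synthesis 11 were tested and 2 were higher (18.2%, against 3.06% of all genes). They were Lalba and Slc2a1, the glucose transporter GLUT1. Slc2a1 was at 53.1, 21.1 and 27.1 CPM in casein-low and at 119, 91.8 and 23.9 CPM in casein-high cells. It was thus lower in Aged D, against the direction of the other mice, and its call (0.98 ± 0.27, adjusted p = 0.036) was lost without Aged A. B4galt1, the galactosyltransferase that alpha-lactalbumin modifies, was not called, at 0.63 ± 0.20 (adjusted p = 0.070).

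Metal-binding genes formed a further group. Of 22 genes of calcium, phosphate and metal transport 12 were tested, with a median of 0.54. Among these 5 were higher (41.7%, against 3.06% of all genes) and 0 lower. Mt2 and Mt1, metallothioneins that bind zinc and copper, rose by 2.74 ± 0.12 and 2.26 ± 0.12. Mt2 was at 717, 226 and 304 CPM in casein-low and at 5101, 1584 and 1836 CPM in casein-high cells (adjusted p = 1.0e-09). The casein-low and casein-high levels did not overlap, and Aged A was highest on both sides. In other cell types of these mice Mt2 stood at 9733, 4888 and 3969 CPM (unscaled), above both sides of the AV cells. Slc39a14, a zinc and manganese importer, rose by 1.25 ± 0.21, Ftl1, the ferritin light chain, by 0.93 ± 0.12, and Atp2c1, the calcium pump of the Golgi, by 0.89 ± 0.19. The call of Slc39a14 was lost without Aged D and that of Atp2c1 without Aged A. Fth1, the ferritin heavy chain, changed by 0.44 ± 0.11, under the fold minimum.

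Of 18 listed genes of prolactin and STAT5 signaling 16 were tested, 1 was higher (6.25%, against 3.06% of all genes) and 2 lower (12.5%, against 3.27%), with a median of 0.068. Prlr, the prolactin receptor, was at 21.3, 60.1 and 18.5 CPM in casein-low and at 33.7, 27.2 and 23.4 CPM in casein-high cells, so that the groups overlapped (-0.04 ± 0.28, adjusted p = 0.97). Elf5, a transcription factor that acts with STAT5 in AV cells, was at 251, 346 and 290 CPM and at 378, 353 and 468 CPM (0.44 ± 0.16, adjusted p = 0.12). Its levels did not overlap, and without Aged C it was called (0.63 ± 0.15, adjusted p = 0.00063). Cish, a feedback inhibitor that STAT5 induces, was not called (-0.08 ± 0.18). Cebpb, a transcription factor of alveolar development, rose by 0.65 ± 0.12, a call lost without Aged C. Ccnd1, cyclin D1, fell by 1.29 ± 0.17 on the log2 scale, and Socs3, an inhibitor of cytokine signals, fell by 0.61 ± 0.17, a call lost when any 1 of the 3 mice was left out.

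Genes of the secretory pathway were not called, though most had a small log2 fold change above 0. Of 31 genes of translocation, folding and vesicle transport 29 were tested, with a median of 0.19. In either direction 0 passed the edgeR test, where 3.06% and 3.27% of all genes were called. A log2 fold change above 0 was seen in 24 of the 29, against 49.9% of all genes tested. At an unadjusted p under 0.05 stood 3 of them, all higher, and DESeq2 called 0. Hspa5, the main chaperone of the endoplasmic reticulum, was at 430, 565 and 494 CPM in casein-low and at 460, 613 and 661 CPM in casein-high cells (0.21 ± 0.14, adjusted p = 0.45), and Calr, Sec61g and Ssr4 had log2 fold changes of 0.14 ± 0.14, 0.29 ± 0.14 and 0.30 ± 0.15. Of 22 genes of the unfolded protein and integrated stress response 20 were tested. Among these 1 was lower (5%, against 3.27% of all genes) and 3 were higher (15%, against 3.06%). The 3 were Xbp1, a transcription factor of secretory cells (0.80 ± 0.18), Herpud1, which takes part in the degradation of misfolded proteins (0.71 ± 0.17), and Dnajb9, a cochaperone of Hspa5 (0.64 ± 0.16), and each lost its call without Aged A and without Aged D. Ddit4, an inhibitor of mTORC1, fell by 1.15 ± 0.20, a call lost without Aged A, and Atf4 was not called (0.37 ± 0.14). Of 19 genes of amino acid uptake and tRNA charging 16 were tested and 1 was higher (6.25%, against 3.06% of all genes). It was the transporter Slc7a5 (1.02 ± 0.25), a call lost without Aged A.

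**Figure D4:**
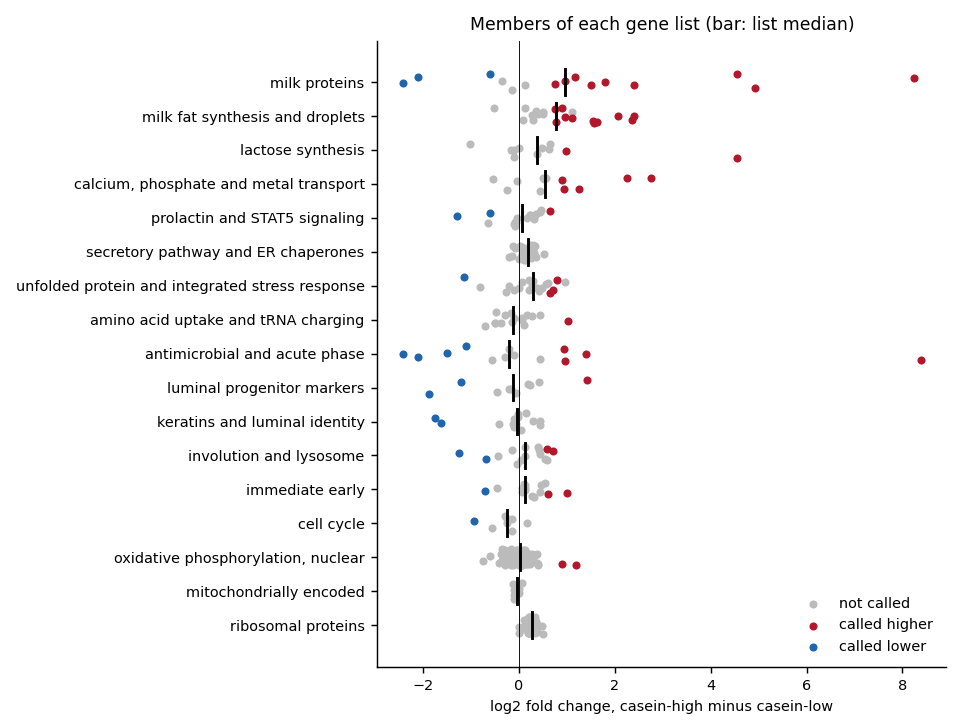
Log2 fold change (casein-high minus casein-low, horizontal axis) of each tested member of 17 gene lists, with members called higher in red, called lower in blue and not called in grey. Black bars are list medians, from 0.96 for milk proteins to -0.25 for cell cycle genes, and points are spread vertically only to be seen.

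Antimicrobial and acute phase genes went in both directions, 4 higher and 4 lower of 13 tested. Each direction held 30.8% of the 13, against 3.06% and 3.27% of all genes. Saa1, a serum amyloid A of the acute phase, had 2, 0 and 0 UMIs in casein-low cells and 664, 158 and 136 UMIs in casein-high cells. Per other UMI the pooled ratio was 223 (interval 61.5 to 1843), 351 without Aged C, 125 without Aged D and at least 37.1 without Aged A, against 3 counts over the group. Saa1, like Lao1, passed the filter on low counts only through its casein-high side, so that its place among the 4 higher genes is a description. Its UMIs were gathered in few cells, 13.1% of casein-high cells in Aged A, 5.4% in Aged C and 3.8% in Aged D. Saa2, its neighbour in the same family, had 4 UMIs in casein-low and 202 in casein-high cells and did not pass the filter, and reads of such close relatives can be shared. C3, the central complement component, rose by 1.39 ± 0.20, while Pglyrp1, which binds bacterial peptidoglycan, fell by 1.50 ± 0.40 and the chemokine Cxcl2 by 1.11 ± 0.22, both with overlapping groups and both no longer called without Aged A. Pglyrp1 was slightly higher in casein-high cells of Aged C, against the direction of the other mice, and its call was lost without Aged D as well. With 13, 30 and 3 UMIs in casein-high cells, Pglyrp1 would not have passed the filter by that side alone. Its place among the 4 lower genes is therefore a description.

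Markers of luminal progenitors went in both directions. Of 12 listed 10 were tested, 2 were lower (20%, against 3.27% of all genes) and 1 higher (10%, against 3.06%). Aldh1a3, which makes retinoic acid and marks luminal progenitors, was at 166, 192 and 91.4 CPM in casein-low and at 41.7, 62.9 and 21.6 CPM in casein-high cells (log2 fold change -1.87 ± 0.17, adjusted p = 2.1e-06). Kit, the stem cell factor receptor, was at 71.8, 91.0 and 83.7 CPM and at 35.3, 33.5 and 37.0 CPM (-1.20 ± 0.17, adjusted p = 0.00023). In neither gene did the sides overlap. Hey1, a target of Notch, rose by 1.42 ± 0.25, and Cd14 was not called (0.19 ± 0.14). Among 14 keratins and luminal identity genes, all tested, 2 were lower (14.3%, against 3.27% of all genes) and 0 higher. Krt7 went from 105, 107 and 128 CPM to 32.6, 33.6 and 33.6 CPM (-1.76 ± 0.17) and Krt19 from 2022, 1797 and 983 CPM to 673, 694 and 256 CPM (-1.63 ± 0.14), whereas Krt8 and Krt18, the common keratins of luminal cells, were not called at 0.28 ± 0.18 and 0.43 ± 0.17. Without Aged D both were called higher, at 0.64 ± 0.14 and 0.70 ± 0.15.

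The genes with the largest change that had the same direction in every mouse included several with no known place in milk. Higher were, after Saa1 and Lao1, Chrdl2, an antagonist of bone morphogenetic proteins, with 0 UMIs in casein-low and 105 in casein-high cells of the 3 mice together, so that it was at least 16.3-fold higher against a floor of 3 counts over the group, and at least 8.19-fold without Aged C and 9.32-fold without Aged D. Ggt5, a gamma-glutamyl transferase, had 5 and 135 UMIs (ratio per other UMI 12.6, interval 5.25 to 39.3). Lipm, a lipase, rose by 3.78 ± 0.30, Pkib, an inhibitor of protein kinase A, by 3.299 ± 0.30, and Dkkl1, a secreted protein related to the Dickkopf inhibitors, by 3.14 ± 0.23 on the log2 scale. The transcripts 2610528A11Rik (3.64 ± 0.27), 1700012B07Rik (3.26 ± 0.43) and E030013I19Rik (3.08 ± 0.51) completed the 12 together with Spp1 and Lalba. Chrdl2, Ggt5, Lipm, Pkib and these 3 transcripts were at 6.50 CPM or less in casein-low cells. Like Saa1 and Lao1, they passed the filter on low counts only through their casein-high side, so that their calls are a description. Dkkl1 was at 9.54, 11.4 and 22.2 CPM in casein-low and at 138, 75.1 and 147 CPM in casein-high cells, with every casein-high level above every casein-low one.

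The 12 with the largest fall included 2 lipoxygenases. Alox12e, a lipoxygenase of epithelia, was at 297, 375 and 254 CPM in casein-low and at 12.9, 27.9 and 5.70 CPM in casein-high cells (log2 fold change -4.36 ± 0.24, adjusted p = 4.4e-09). Alox15, a lipoxygenase of arachidonic and linoleic acid, was at 45.9, 91.0 and 33.0 CPM and at 1.90, 2.85 and 2.85 CPM (-4.59 ± 0.29, adjusted p = 2.1e-08). Cpe, carboxypeptidase E, which trims prohormones in secretory granules, was at 180, 224 and 182 CPM and at 11.8, 17.1 and 7.41 CPM (-3.99 ± 0.20, adjusted p = 1.8e-09). A UMI of Cpe was found in 55.7%, 61.7% and 44.4% of casein-low cells but in 6.4%, 9.2% and 3.8% of casein-high cells, and after thinning in 31.2%, 33.3% and 24.8% against 1.4%, 2.8% and 0.8%. The fall of these 3 genes was seen without overlap in each mouse.

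Klk11, a serine protease, had 86, 7 and 32 UMIs in casein-low and 5, 1 and 1 in casein-high cells, with a log2 fold change of -4.62 ± 0.41 within mice. Pooled over mice it was 38.4 times lower per other UMI (interval 18.1 to 97.4), and 22.4 times without Aged C. The transcription factors Tfap2b and Dlx5 had log2 fold changes of -3.79 ± 0.39 and -3.09 ± 0.45, Fbn2, a fibrillin of microfibrils, of -3.71 ± 0.50, Sftpd, the lectin surfactant protein D, of -3.66 ± 0.55, Kcns1, a potassium channel subunit, of -3.42 ± 0.32, Atp10b, a phospholipid transporter, of -2.93 ± 0.43, 1810065E05Rik of -3.51 ± 0.42 and the interferon-inducible Ifi202b of -2.94 ± 0.32. The levels of Ifi202b overlapped between the sides, since its level was 84.9 CPM in casein-low cells of Aged A and 3.25 and 7.69 CPM in those of Aged C and Aged D. Alox15, Klk11, Tfap2b, Dlx5, Fbn2, Sftpd, Kcns1, Atp10b and 1810065E05Rik were at 6.08 CPM or less in casein-high cells. They passed the filter on low counts only through their casein-low side, so that their calls are a description.

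Of 88 tested genes of nuclear-encoded oxidative phosphorylation 2 were higher (2.27%, against 3.06% of all genes) and 0 lower, with a median of 0.018. Both, Ndufaf6 (1.18 ± 0.31) and Atp5sl (0.89 ± 0.23), lost their call without Aged A and without Aged D. Cox4i1, a subunit of cytochrome oxidase, was not called (0.28 ± 0.12). Of 12 tested mitochondrially encoded genes 0 were called by edgeR or DESeq2 and 0 reached an unadjusted p under 0.05, with a median of -0.036. Of 84 tested ribosomal protein genes 0 were called by edgeR at the fold minimum or by DESeq2, though 83 had a log2 fold change above 0, 59 an unadjusted p and 14 an adjusted p under 0.05, and the median was 0.27. Among them were Rps27 (0.33 ± 0.09, adjusted p = 0.035) and Rps19 (0.27 ± 0.09, adjusted p = 0.10), both with a change under the fold minimum. Immediate early genes, 16 of them tested, also respond to dissociation of the tissue. Btg2 and Ier2 were higher (1.01 ± 0.15 and 0.61 ± 0.12), 12.5% of the 16 against 3.06% of all genes. Dusp1 was lower (-0.72 ± 0.13), 6.25% against 3.27%. The calls of Ier2 and Dusp1 were lost without Aged D. Jund (0.44 ± 0.10, adjusted p = 0.0094) changed under the fold minimum, and Junb was not called (0.13 ± 0.13). Among 15 tested genes of involution and lysosomes Tgfb3 (0.70 ± 0.17) and Ctsb, a lysosomal protease (0.59 ± 0.16), were higher. Timp3, an inhibitor of matrix proteases (-1.26 ± 0.19), and Bcl3 (-0.68 ± 0.18) were lower. All of these but Timp3 lost their call without Aged A and without Aged D. Each direction held 13.3% of the 15, against 3.06% and 3.27% of all genes. Igfbp5 was not called (0.40 ± 0.13), and Ctsl (0.54 ± 0.15, adjusted p = 0.043) changed under the fold minimum.

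The share of cells that the authors had assigned to S or G2M was compared without reading it as proliferation, which was not tested. The paper took these phases as a measure of proliferation, which it expects to be high at diestrus. Some cell cycle genes were scarce and others were not. Mki67 had 2, 5 and 5 UMIs in casein-low and 4, 9 and 1 in casein-high cells, Top2a 4, 0 and 12 and 5, 7 and 6, and 19 of 27 cell cycle genes did not pass the filter. Pcna, which passed it, had 90, 27 and 97 UMIs in casein-low and 102, 172 and 75 in casein-high cells, and Hmgb2 189, 64 and 205 and 191, 423 and 148. Cells assigned to S or G2M were 48.1% of casein-high and 53.7% of casein-low cells in Aged A, 52.5% and 56.8% in Aged C and 50.2% and 59.0% in Aged D. The mean difference was -6.27 ± 2.32 percentage points (SD, 3 mice), lower in 3 of 3 mice, with p = 0.25 in the exact two-sided permutation test, which is the smallest p that 3 pairs allow. When cells were chosen by the casein share of their UMIs the difference was -3.61 points, and against cells with 0 casein UMIs it was -4.58 points, with 2 of 3 mice lower in each case. Of the 8 cell cycle genes tested 0 were higher and 1 was lower (12.5%, against 3.27% of all genes). It was Stmn1, a microtubule regulator (-0.93 ± 0.24), with a call lost without Aged A and without Aged D. The median share of mitochondrial UMIs was 2.03% in casein-high and 2.38% in casein-low cells of Aged A, 2.34% and 2.54% in Aged C and 2.03% and 2.25% in Aged D, a mean difference of -0.260 ± 0.077 points (SD, 3 mice; exact permutation p = 0.25, again the smallest possible).

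Cells with 3 to 19 casein UMIs, which the comparison did not use, lay in between for most of the called genes. Their level was between the casein-low and casein-high levels of the same mouse for 207 of the 252 higher genes in Aged A (82.1%), 162 in Aged C (64.3%) and 179 in Aged D (71.0%), and for 245, 234 and 222 of the 269 lower genes (91.1%, 87.0% and 82.5%). In all 3 mice at once this held for 98 of the higher genes (38.9%) and 179 of the lower (66.5%). Ltf, in CPM without TMM scaling, went from 3622 to 1617, 937 and 271 over cells with 0 to 2, 3 to 19, 20 to 99 and 100 or more casein UMIs in Aged A, from 3138 to 1542, 665 and 203 in Aged C and from 1824 to 491, 259 and 120 in Aged D. Lalba went from 129 to 591, 1500 and 3359 in Aged A, from 12.6 to 106, 362 and 1308 in Aged C and from 40.5 to 204, 661 and 1234 in Aged D. Both genes thus moved in 1 direction at every step in every mouse. Among the 252 and 269 genes 125 (49.6%) and 126 (46.8%) went further in the same direction in all 3 mice from cells with 20 to 99 to cells with 100 or more casein UMIs.

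**Figure D5:**
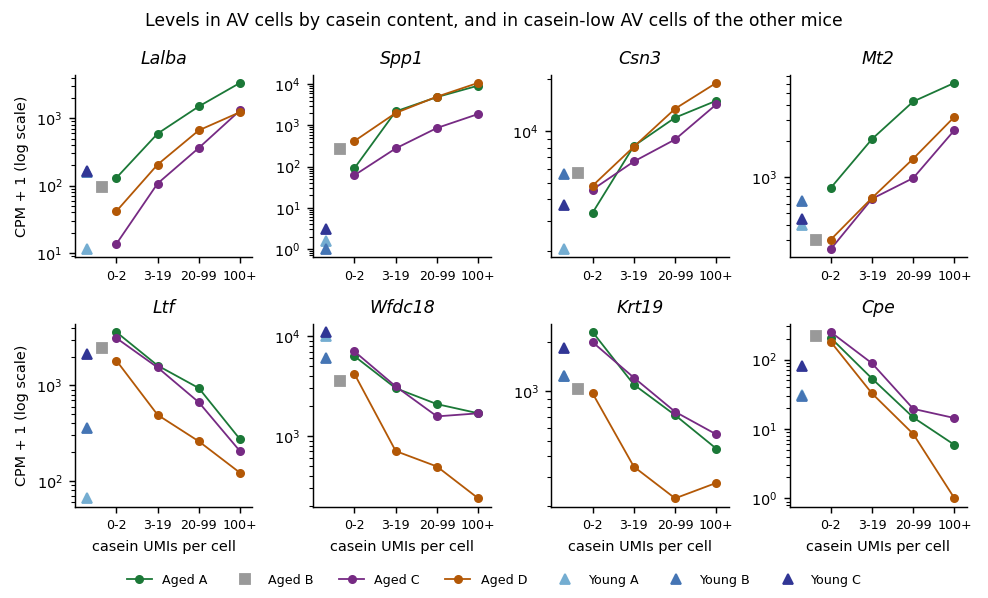
Level (CPM + 1 without TMM scaling, log scale) of 8 genes in AV cells with 0 to 2, 3 to 19, 20 to 99 and 100 or more casein UMIs (horizontal axis) of Aged A, Aged C and Aged D (circles joined by lines), and, to the left, in casein-low AV cells of Aged B (square) and the young mice (triangles). The upper genes go up and the lower genes go down with casein content, except Krt19 and Wfdc18, which are level or slightly higher in the last class of 1 mouse each.

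AV cells of mice outside the comparison were also set beside its sides. In the 1426 casein-low AV cells of Aged B the level was nearer the mean casein-low than the mean casein-high level of the other 3 aged mice, on the log2 scale of CPM + 1, for 195 of the 252 higher genes (77.4%) and 232 of the 269 lower genes (86.2%). In the young mice this was so for 62.3 to 77.0% of the higher and 58.7 to 73.2% of the lower genes. Ltf was at 2485 CPM in Aged B, within the casein-low range of the other aged mice, but at 64.6, 360 and 2140 CPM in Young A, Young B and Young C. Cpe was at 216 CPM in Aged B and 30.0, 28.8 and 80.6 CPM in the young mice, and Alox12e at 150.5 CPM in Aged B and 4.04, 5.40 and 0.413 CPM in the young mice. Alox12e, low in casein-high cells, was thus also low in young AV cells, which held next to no casein UMIs. Cpe in young AV cells lay between the sides, above the TMM-scaled 11.8, 17.1 and 7.41 CPM of casein-high cells and below the 180, 224 and 182 of casein-low cells. Lalba was at 93.7 CPM in Aged B and at 10.4, 158 and 162 CPM in the young mice, and Saa1 had 0 CPM in Aged B and at most 1.24 CPM in a young mouse. Prlr, a hormone-sensing marker, was at 18.3 to 66.5 CPM in casein-low cells of the 4 aged mice and at 141, 243 and 204 CPM in the young mice. Some markers of other types were also higher in young AV cells. Dcn was at 214, 57.6 and 206 CPM against 6.59 to 32.9 in aged mice. Fabp4 was at 312, 525 and 181 CPM against 21.6 to 52.5, whereas Krt14, Krt17 and Krt5 were not higher in the young mice. Whether the UMIs of Prlr came from other cells was not tested.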

How the data were processed

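The authors made the deposited UMI counts per gene and cell with Cell Ranger 2.0 and the mm10 build, per the submitters' processing notes, from droplet 3′ libraries, and deposited with them a cell type and a phase of the cycle for every cell (27998 genes, 13684 cells). All of these cells were kept. Counts were summed per mouse and side, the 3 caseins of the rule were set aside, and low genes were removed with filterByExpr. The sums were tested with edgeR 4.0.16 (TMM, quasi-likelihood F test, mouse as a block, residual df 2, R 4.3.3). The procedure was then also run on counts simulated from the gene means and dispersions of this fit, and that outcome is not given here. The standard error is the size of the log2 fold change divided by the square root of F. It and the p rest on dispersions moderated across genes (prior df 14.2, against residual df 2). DESeq2 1.42.0 was an alternative, as were another normalization, other filters, other casein limits, matched and thinned depth, G1 cells alone, leaving out doublets (Scrublet in scanpy 1.11.5, expected rate 0.06) and leaving out each mouse. Doublets were otherwise kept. The block is the mouse, since both sides came from the same animal. Thinning drew 2000 UMIs of other genes per cell, and 0 cells were shallower.

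Named genes were the 12 called genes with the largest change in each direction that went the same way in every mouse, up to 6 called genes and 4 further members per list, and uncalled milk proteins. The members, the gene lists and the tests were chosen with earlier results of these data known, and a list is described by its counts and median without a test. Intervals are 95% exact intervals and a floor is 3 counts, and both cover counting error alone. Promoter windows are from RefSeq.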

Additional observations from a re-analysis of the deposited data

Results flagged for a closer look

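In the 4 aged mice 98 measures were examined for a mouse whose gap to the other 3 was large relative to the range of the 4. Such a gap can be small in itself. They were the levels of named genes in casein-low AV cells, the casein-high share, and the mean casein UMIs of casein-low AV cells and of other types. Of the 98, 7 had such a mouse, where chance gives about 1 in 20, and all 7 were gene levels. In CPM without TMM scaling, Mt1 stood at 1646, Mt2 at 811 and B4galt1 at 48.9 in Aged A. Saa1 stood at 1.03 in Aged A, from 2 UMIs, where the other aged mice had 0 CPM. Hspa5 stood at 625 CPM and Prlr at 66.5 CPM in Aged C, the mouse with the fewest casein-low cells. Krt7 stood at 126 CPM in Aged D against 119, 118 and 119 in Aged A, Aged B and Aged C, a small difference among close values. Outside AV cells, 7 cells had 20 or more casein UMIs, against 0 of 5578 cells of other types in young mice, which allows a share of up to 0.0538%. Of these cells 5 were myoepithelial, and Scrublet marked 2 of the 7 as doublets.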

How the results depend on the processing

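The counts of genes higher and lower in casein-high cells were 127 and 137 with DESeq2 and 92 and 101 after thinning, where fewer genes (4609) could be tested. Leaving out 1 mouse gave 89 to 348 higher and 126 to 369 lower genes. The fit without the replicate block, which sets aside that both sides of a pair came from the same mouse, called 32 and 48. Under all other alternatives these counts stayed within 1.5 times the counts of the report. With 10 or more casein UMIs as the limit, the casein-high share of AV cells was 52.1% in Aged A, 0.415% in Aged B, 83.3% in Aged C and 42.8% in Aged D. With 40 or more it was 29.7%, 0%, 51.8% and 14.3%, and by casein share of UMIs it was 68.3% in Aged C. The difference in the share of cells assigned to S or G2M ran from -4.99 to -7.24 points and that in the mitochondrial share from -0.216 to -0.288 points when 1 mouse was left out. None of the 71 called genes named by the rule turned direction under any alternative in which it was tested. Genes that were not called did so in some. The log2 fold change of Cd14 turned to -0.042 in G1 cells, and the log2 fold change of Prlr to 0.091 by casein share, 0.036 with 40 or more UMIs, 0.10 with matched depth and 0.56 in G1 cells. With 1 mouse left out, the log2 fold change of Prlr ran from -0.45 (without Aged A) to 0.51 (without Aged C), the log2 fold change of Cd59a from -0.044 (A) to 0.25 (C), the log2 fold change of Cish from -0.20 (C) to 0.18 (A), the log2 fold change of Junb from -0.036 (D) to 0.30 (A), the log2 fold change of Krt8 from -0.069 (C) to 0.64 (D) and the log2 fold change of Muc15 from -0.34 (A) to 0.15 (C). The cause of these shifts was not tested. The 81 casein-low cells of Aged C limit the depth of that side. The pooled ratios without single mice were added after seeing the data.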

Other observations

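AV cells of Aged B with 3 to 19 casein UMIs held Csn1s1 alone. These 19 cells had 128 UMIs of Csn1s1 and 0 of Csn1s2a and Csn2, whereas cells of this class held UMIs of Csn1s2a in 33.7%, 48.3% and 40.5% and of Csn2 in 43.6%, 46.6% and 34.7% of cells in Aged A, Aged C and Aged D. The 1426 casein-low AV cells of Aged B did hold all 3 caseins, with 25 UMIs of Csn1s1, 33 of Csn1s2a and 17 of Csn2. Aged B also had casein UMIs in 1.54% of its cells of other types, against 28.6 to 62.5% in the other 3 aged mice.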
